A study of Mus musculus with 6 samples.

Results

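Bbc3, Eda2r and Trp53inp1 are 3 target genes of the transcription factor p53 among the 1834 genes of the deposited liver expression table. They were taken by symbol, and they had been selected on their measured values in the same 6 libraries, where one was higher and the others were lower after delivery of Ly6d. Their difference between the groups is therefore a description here and was not tested. The tested livers received AAV-Ly6d, an adeno-associated virus that carries Ly6d, and their genotype is labelled Ly6d overexpression. The livers set against them received AAV-GFP, the same kind of vector with green fluorescent protein, in mice labelled WT. Each group has 3 libraries, and both groups were on the same diet. The study title places the work in metabolic dysfunction-associated steatotic liver disease. The diet's composition, the promoter in the vector, and the strain, age and number of the mice are not stated in the labels. The labels do not tie a library to an animal, so the spread within a group may be technical.

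p53 is held at a low level in unstressed cells and accumulates after DNA damage and other stress. It binds DNA at paired half-sites and switches on genes for cell cycle arrest, repair, metabolism and apoptosis. Bbc3 encodes PUMA, a BH3-only protein that binds the survival proteins of the BCL2 family and so frees the mitochondrial route to apoptosis. Eda2r encodes a receptor of the TNF receptor family that binds the A2 form of ectodysplasin A and signals to NF-kappaB. Trp53inp1 encodes a stress-induced protein that binds p53 and the kinase HIPK2 in the nucleus and ATG8-family proteins of the autophagosome in the cytoplasm.

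The table held between 3835101 and 4359932 reads per AAV-Ly6d library and between 3248078 and 3448888 per AAV-GFP library, which is part of each library; the full depth is not known. The labels do not say by which rule its genes were chosen, and no tested gene had an absolute log2 difference below 0.32. Ly6d itself (chromosome 15, 74762056 to 74763620, GRCm38) had normalised read counts of 3181, 1799 and 3275 in AAV-Ly6d and of 56.1, 9.68 and 182 in AAV-GFP, and rose by a log2 difference of 5.79 (SE 0.88, limma adjusted p = 0.0182). AAV-GFP replicate 2 stood apart on the first principal component of the table, where AAV-Ly6d libraries scored 25.1 to 29.6, AAV-GFP replicate 2 -49.9 and its 2 group mates -15.4 and -18.1. Values without it are given where they bear on the genes below.

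The sequences upstream of the transcription start are shown for letter matches to the p53 consensus; a match is not a binding site. RefSeq promoters were found for Bbc3, with 3 alternative starts, and for Eda2r. The p53 consensus site was searched as 2 abutting half-sites of 10 bases, each with the core CNNG (C at position 4 and G at position 7), with at most 3 mismatches to the consensus over 20 bases, a limit set so as to take in the match of Bbc3. The consensus reads the same on both strands, so 1 pass covers both. Of 32841 promoters in the RefSeq table, 1.14% held such a match in the 250 bases before the start. Among genes of the expression table it was 1.10% of 1642 promoters.

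Bbc3 lies on the plus strand of chromosome 7 from 16308393 to 16318205 and has 4 annotated transcripts, none of which overlaps another gene. Its first RefSeq start has a match with 3 mismatches at chr7:16309486-16309505, between 97 and 78 bases before the start, in an intron of 1 alternative transcript. Its other RefSeq starts had no match in this window. The plus strand at chr7:16309333-16309582 (GRCm38.p6) is shown with the match in capitals.
Bbc3: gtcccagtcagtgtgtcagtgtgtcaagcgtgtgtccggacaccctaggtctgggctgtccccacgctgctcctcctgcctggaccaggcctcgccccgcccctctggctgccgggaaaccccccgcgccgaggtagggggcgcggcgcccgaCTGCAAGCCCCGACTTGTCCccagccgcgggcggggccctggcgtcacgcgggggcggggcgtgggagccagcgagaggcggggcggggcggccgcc

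Eda2r lies on the minus strand of the X chromosome from 97333840 to 97377216, with 4 annotated transcripts and no overlapping gene. No match was found in its window, which says only that these letters are not there. The minus strand at chrX:97377217-97377459 is shown for comparison with Bbc3.
Eda2r: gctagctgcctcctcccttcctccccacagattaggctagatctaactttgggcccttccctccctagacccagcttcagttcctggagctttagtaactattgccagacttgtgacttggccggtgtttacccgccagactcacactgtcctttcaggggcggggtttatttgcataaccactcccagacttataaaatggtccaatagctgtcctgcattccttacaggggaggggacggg

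Trp53inp1 lies on the plus strand of chromosome 4 from 11156431 to 11174379. Of the 10 genes of the p53 target lists that are in the expression table and have a RefSeq promoter, Bbc3 and Ccng1 had a match. Ccng1 encodes cyclin G1, an atypical cyclin that acts in feedback on p53. Its match had 1 mismatch, which 0.0579% of all promoters reached, and lies at chr11:40755462-40755481. The minus strand at chr11:40755312-40755536 is shown because Ccng1 is the other of these genes with a match; its difference between the groups did not pass.
Ccng1: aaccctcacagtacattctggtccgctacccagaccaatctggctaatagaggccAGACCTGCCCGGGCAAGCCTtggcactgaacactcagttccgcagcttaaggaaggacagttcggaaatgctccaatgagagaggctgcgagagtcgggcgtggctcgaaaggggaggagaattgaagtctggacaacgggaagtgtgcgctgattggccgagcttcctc

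Bbc3, the BH3-only apoptosis gene, was higher in AAV-Ly6d. Bbc3 had normalised read counts of 84.6, 153 and 119 in AAV-Ly6d, against 40.6, 18.3 and 61.6 in AAV-GFP. All AAV-Ly6d libraries lay above all AAV-GFP libraries, and the gap was narrow, the closest libraries of the 2 groups differing by a factor of 1.37. The means were 119 ± 34.5 in AAV-Ly6d and 40.2 ± 21.7 in AAV-GFP (SD, n = 3 each), a ratio of 2.96. The difference in mean log2(value + 1) was 1.66 with a standard error of 0.47. Without AAV-GFP replicate 2, which had the lowest value of all, the AAV-GFP mean was 51.1, the ratio 2.33 and the log2 difference 1.19. The values rest on few reads, 87, 154 and 109 in AAV-Ly6d and 42, 17 and 73 in AAV-GFP.

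Eda2r, the ectodysplasin A2 receptor, was lower in AAV-Ly6d. Eda2r had normalised read counts of 21.4, 19.9 and 21.8 in AAV-Ly6d, against 34.8, 75.3 and 70.0 in AAV-GFP. The AAV-Ly6d libraries lay close together, at only 22, 20 and 20 reads, while AAV-GFP replicate 1 sat well below the others of its group. The groups did not overlap. The means were 21.0 ± 0.966 in AAV-Ly6d and 60.1 ± 22.0 in AAV-GFP (SD, n = 3 each), and the log2 difference was -1.40 with a standard error of 0.39. The AAV-GFP mean was 2.86 times the AAV-Ly6d mean, and 2.49 times without AAV-GFP replicate 2, where the log2 difference was -1.20. Without AAV-GFP replicate 1 the log2 difference was -1.74. The group sums were 62 reads in AAV-Ly6d (exact Poisson 95% interval 47.5 to 79.5) and 189 in AAV-GFP (163 to 218), and these intervals cover counting error only.

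Trp53inp1, the p53 cofactor and autophagy protein, was also lower in AAV-Ly6d and is by far the most abundant of the 3. Trp53inp1 had normalised read counts of 2422, 2340 and 2743 in AAV-Ly6d, against 5493, 7160 and 4256 in AAV-GFP. Every AAV-Ly6d library was below every AAV-GFP library, with a factor of 1.55 between the closest libraries of the 2 groups. The means were 2502 ± 213 in AAV-Ly6d and 5636 ± 1457 in AAV-GFP (SD, n = 3 each), and the log2 difference was -1.14 with a standard error of 0.22. The AAV-GFP mean was 2.25 times the AAV-Ly6d mean, and 1.95 times without AAV-GFP replicate 2, where the log2 difference was -0.95.

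**Figure D1:**
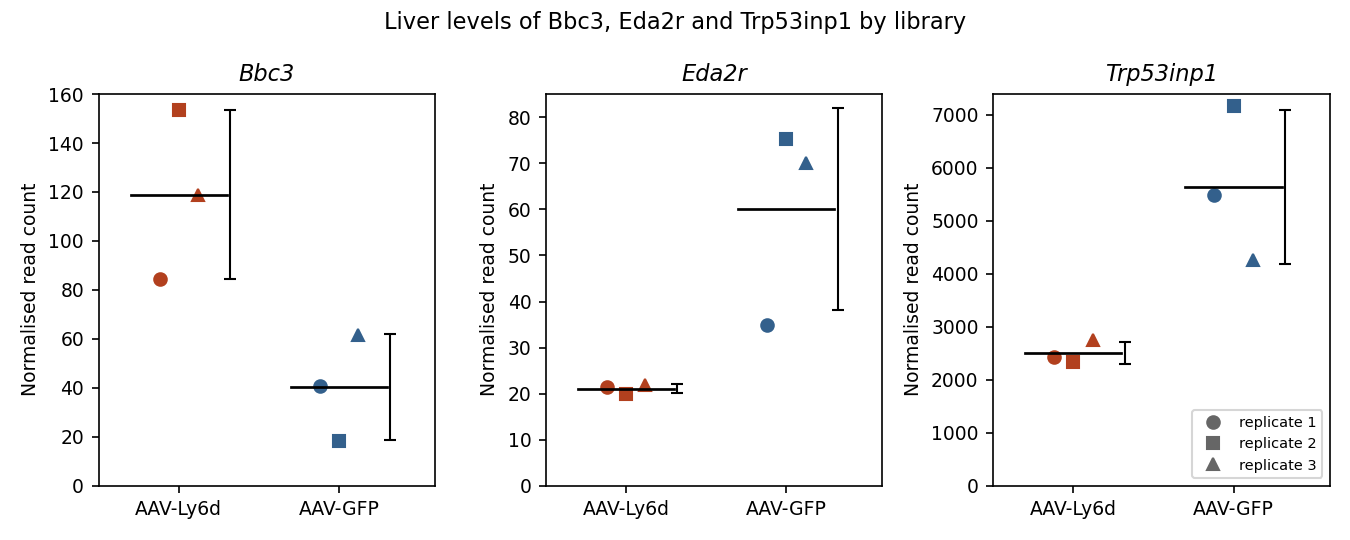
Normalised read counts of Bbc3, Eda2r and Trp53inp1 (vertical axes from 0, 1 panel per gene) in 3 AAV-Ly6d libraries and 3 AAV-GFP libraries; symbols give the replicate, lines the mean and bars the SD. Bbc3 averages 119 in AAV-Ly6d and 40.2 in AAV-GFP, Eda2r 21.0 and 60.1, and Trp53inp1 2502 and 5636, with no overlap between groups in any panel.

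A lack of overlap was common in this table. Groups did not overlap for 84.5% of the 1780 tested genes, 35.2% with AAV-Ly6d higher and 49.3% with AAV-Ly6d lower, and the contrast chose the 3 genes, so nothing is read from it. Larger absolute log2 differences than those of Bbc3, Eda2r and Trp53inp1 were seen for 327, 457 and 664 tested genes, in that order. The median log2 difference of all tested genes was -0.67. Relative to that median Bbc3 stood at 2.33, Eda2r at -0.72 and Trp53inp1 at -0.47. A median ratio rescaling of the libraries brought this median to -0.33 and gave log2 differences of 1.99 for Bbc3, -1.06 for Eda2r and -0.80 for Trp53inp1. Both scales thus gave the same directions for all 3 genes. Such rescaling takes most genes as unchanged, while no tested gene had an absolute log2 difference below 0.32. It is therefore not an independent check.

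Ratios within a library do not depend on the scaling. Bbc3 had 3.95, 7.70 and 5.45 reads per Eda2r read in the AAV-Ly6d libraries, against 1.17, 0.243 and 0.880 in the AAV-GFP libraries. Per 1000 Trp53inp1 reads there were 34.9, 65.6 and 43.2 Bbc3 reads in AAV-Ly6d, against 7.40, 2.55 and 14.5 in AAV-GFP. Neither of these ratios overlapped between the groups. That outcome was fixed in advance, since Bbc3 was higher and the other genes lower without overlap, so nothing is read from it. The ratio of Trp53inp1 to Eda2r, the genes that were both lower, was 113, 117 and 126 in AAV-Ly6d, against 158, 95.1 and 60.8 in AAV-GFP, so its groups overlapped.

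The spread inside each group differed between the genes. The coefficient of variation was 4.59% in AAV-Ly6d and 36.6% in AAV-GFP for Eda2r. In the same order it was 8.51% and 25.9% for Trp53inp1, and 29.0% and 53.9% for Bbc3. Eda2r had only 22, 20 and 20 reads in AAV-Ly6d, where counting error is wider than 4.59%. Its closeness there is therefore not read as a small replicate spread. AAV-GFP replicate 2 had the lowest Bbc3 and the highest Eda2r and Trp53inp1 of all 6 libraries. Against the mean log2 value of the other AAV-GFP libraries it stood at -1.40 for Bbc3, 0.60 for Eda2r and 0.57 for Trp53inp1. In the same measure AAV-GFP replicate 3 stood at 1.14 for Bbc3, 0.44 for Eda2r and -0.56 for Trp53inp1, so the AAV-GFP libraries did not share 1 order across the genes. Within AAV-Ly6d, replicate 2 had the highest Bbc3 and the lowest Trp53inp1. Its normalised Eda2r value was the lowest too, but at 20 reads, the same number as in replicate 3.

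Per kilobase of the longest annotated transcript (1814 bases for Bbc3, 4752 for Eda2r and 5432 for Trp53inp1), Trp53inp1 had the highest level in every library. The mean normalised read count per kilobase was 461 in AAV-Ly6d and 1038 in AAV-GFP for Trp53inp1, 65.5 and 22.1 for Bbc3, and 4.42 and 12.6 for Eda2r. Bbc3 was above Eda2r on this scale in all AAV-Ly6d libraries. In AAV-GFP replicate 2 the order of these levels was turned, with 10.1 for Bbc3 and 15.9 for Eda2r.

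Differences in this table moved with transcript length. Among tested genes within 25% of the length of Bbc3, 161 of 230 were higher in AAV-Ly6d and the median log2 difference was 0.61. Within the same window around Eda2r 149 of 523 were higher (median -0.78), and around Trp53inp1 110 of 461 (median -0.80). All 3 genes thus lay on the side where most genes of their length lay, with larger absolute log2 differences than these medians. Trp53inp1 lay between the quartiles of its window (-1.23 and -0.46). Bbc3 lay above the upper quartile of its window (0.995), and Eda2r below the lower quartile of its window (-1.25). The part of transcript length in their differences was not tested.

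**Figure D2:**
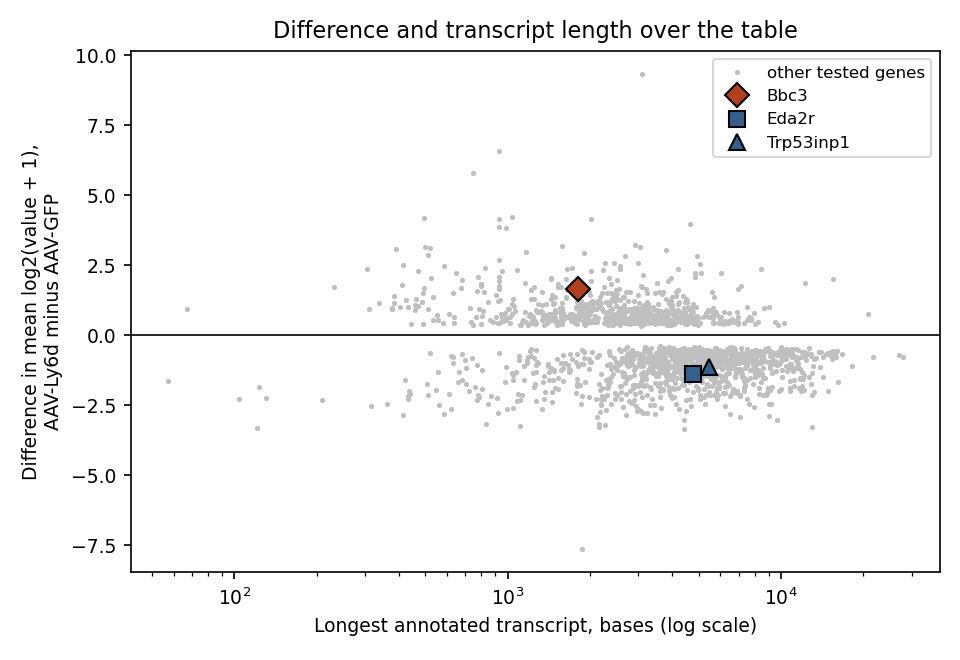
Difference in mean log2(value + 1), AAV-Ly6d minus AAV-GFP, against the length of the longest annotated transcript in bases (log scale) for the tested genes (grey points), with Bbc3, Eda2r and Trp53inp1 marked. Bbc3 (1814 bases, 1.66) lies among genes that are mostly higher, and Eda2r (4752 bases, -1.40) and Trp53inp1 (5432 bases, -1.14) lie among genes that are mostly lower.

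Cell type markers moved with the same contrast, in a table where limma called 28.0% of the 1780 tested genes lower and 15.9% higher. Of 17 listed endothelial markers 11 were tested and 11 fell, with summed normalised read counts of 2941 to 3814 in AAV-Ly6d and 8045 to 12581 in AAV-GFP. Of 17 stellate cell and fibroblast markers 9 were tested and 6 fell, with sums of 1151 to 2580 in AAV-Ly6d and 3714 to 5308 in AAV-GFP. Of 12 hepatocyte markers 6 were tested, 4 rose and 2 did not pass, with sums of 498841 to 515642 in AAV-Ly6d and 380903 to 867094 in AAV-GFP. The cholangiocyte markers Sox9 and Tff3, 2 of 8 listed, rose, with sums of 303 to 1111 in AAV-Ly6d and 59.2 to 80.2 in AAV-GFP. No marker in the table was at 0 in any library, and 0 of 10 macrophage and 0 of 10 lymphocyte markers were among its genes. In bulk liver, fewer cells of a type and less RNA per cell cannot be told apart, and the part of these markers in the values of Bbc3, Eda2r and Trp53inp1 was not tested.

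Other reported p53 targets went both ways, more of them with Bbc3 than with Eda2r and Trp53inp1. Of 70 further listed targets 9 were in the table and tested, 7 higher and 2 lower in AAV-Ly6d. Among all 1780 tested genes, 700 were higher. The median log2 difference of the 9 was 0.74, against -0.67 for all tested genes. In limma 4 rose, 0 fell and 5 did not pass (adjusted p under 0.05). Over the whole table limma called 43.9% of the tested genes, 15.9% higher and 28.0% lower. The share called in either direction, 4 of 9, is thus near the background. All 4 calls were rises, the direction in which limma called 15.9%, and so few genes say nothing particular about the list. Of all calls, 36.2% were higher in AAV-Ly6d, a share that was 69.4% after median ratio rescaling and 69.1% in edgeR with TMM factors. All 9 had an unadjusted p under 0.05, as did 1394 of the 1780 tested genes. DESeq2 on recovered reads called 6 higher and 2 lower, the lower ones being Ccng1 and Mgmt, and edgeR called 3, all higher, with the deposited size factors. Of all 1780 tested genes DESeq2 called 503 higher and 835 lower, and this edgeR fit 161 higher and 304 lower. The list members outside the table, Cdkn1a, Mdm2, Bax and Pmaip1 among them, were not analysed here, nor was Trp53 itself.

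Of 15 further listed targets that act in cell cycle arrest and growth, 4 were tested, of which 2 rose, 0 fell and 2 did not pass, beside 43.9% called over the table; so few genes say nothing particular about the list. Plk3, a stress-responsive polo-like kinase, had 1557, 2152 and 1036 in AAV-Ly6d, against 630, 533 and 721 in AAV-GFP. All AAV-Ly6d values lay above those of AAV-GFP, and Plk3 rose by a log2 difference of 1.28 (SE 0.28, limma adjusted p = 0.0324). Btg2, an antiproliferative transcription cofactor, had 407, 704 and 286 in AAV-Ly6d, against 155, 164 and 259 in AAV-GFP, and rose by 1.21 (SE 0.37, limma adjusted p = 0.0414). In the feedback list, Ccng2, an atypical cyclin linked to cell cycle exit, rose by 0.68 (limma adjusted p = 0.0425), with means of 440 ± 41.6 in AAV-Ly6d and 275 ± 41.4 in AAV-GFP (SD, n = 3 each). Its relative Ccng1, of the cell cycle list, was at 855, 729 and 820 in AAV-Ly6d, against 861, 1666 and 1302 in AAV-GFP. AAV-GFP replicate 1 held nearly the same Ccng1 level as AAV-Ly6d replicate 1, and the log2 difference of -0.62 did not pass (limma adjusted p = 0.0614); it was -0.40 without AAV-GFP replicate 2 and -0.28 after median ratio rescaling. Epha2, an ephrin receptor, did not pass either (1.21), but passed without AAV-GFP replicate 2 with a log2 difference of 0.56.

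Among targets with metabolic roles, Gls2, the liver-type glutaminase of mitochondria, had 6554, 10721 and 6915 in AAV-Ly6d, against 6097, 3870 and 4425 in AAV-GFP. The groups were separated by a small step only, and Gls2 rose by 0.74 with a limma adjusted p of 0.0497, just under the threshold. Lpin1, a phosphatidate phosphatase that also acts as a transcriptional coactivator, had overlapping groups, 8406, 4515 and 3838 in AAV-Ly6d against 2064, 717 and 4072 in AAV-GFP, and did not pass (1.53; 0.86 without AAV-GFP replicate 2). Mgmt, which removes alkyl groups from DNA bases, averaged 223 ± 47.7 in AAV-Ly6d and 359 ± 72.7 in AAV-GFP (SD, n = 3 each) and did not pass (-0.68). Of the 4 rises, Plk3 passed limma without AAV-GFP replicate 2, AAV-GFP replicate 3 or AAV-Ly6d replicate 3. Ccng2 passed without AAV-GFP replicate 2 alone, and Btg2 and Gls2 passed in none of the 6 fits that leave out a library. Across those fits the adjusted p of Plk3 ran from 0.0386 to 0.0985, that of Btg2 from 0.0536 to 0.104, that of Ccng2 from 0.0450 to 0.104 and that of Gls2 from 0.0550 to 0.123.

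**Figure D3:**
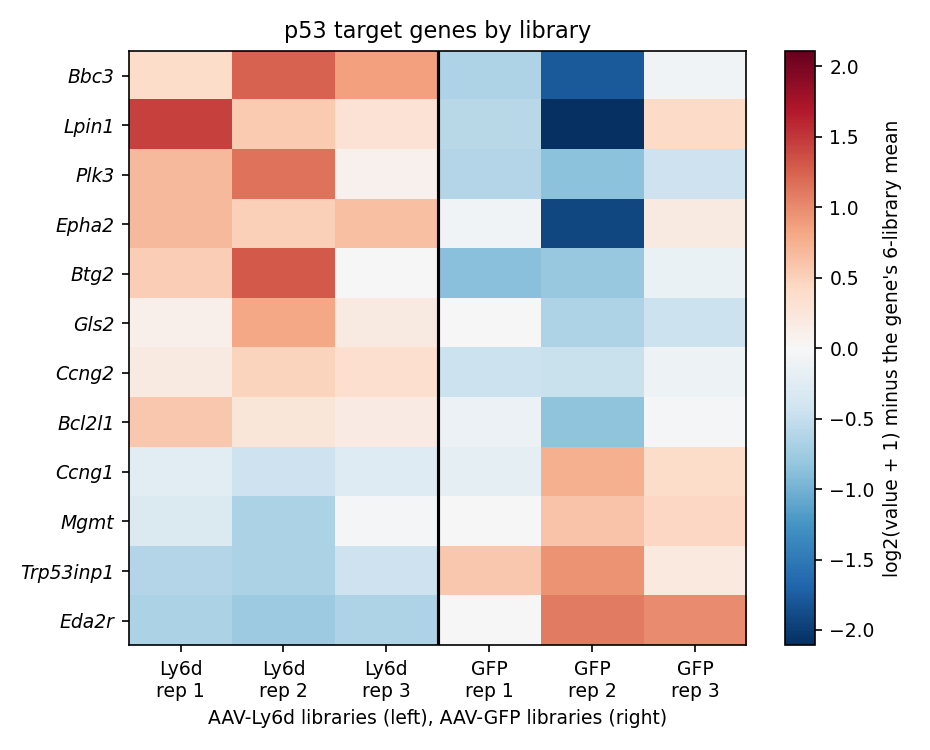
Heatmap of log2(value + 1) minus each gene's own 6-library mean for the 12 p53 target genes of the table, with AAV-Ly6d libraries on the left and AAV-GFP libraries on the right. Bbc3 and 7 others are mostly red on the left, while Ccng1, Mgmt, Trp53inp1 and Eda2r are mostly red on the right, and AAV-GFP replicate 2 holds the deepest blue for Bbc3, Lpin1 and Epha2.

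The partners of PUMA in the BCL2 family were sparsely covered. Of 19 further members 2 were tested and both were higher without passing, beside 700 of all 1780 tested genes that were higher. Bcl2l1 counts among the p53 targets above as well. Both passed after median ratio rescaling (limma adjusted p = 0.0405 for Bcl2l1 and 0.0368 for Bik) and in edgeR with TMM factors (adjusted p = 0.0365 and 0.0358 in the same order). The rescaled fit called 649 of 1791 tested genes higher, and edgeR with TMM factors 668 of 1780. Bcl2l1 encodes BCL-XL, a survival protein that PUMA binds, and had 1010, 814 and 767 in AAV-Ly6d, against 624, 378 and 656 in AAV-GFP. The groups did not overlap, and the log2 difference was 0.68 (limma adjusted p = 0.0562), or 0.42 without AAV-GFP replicate 2. Bik, another BH3-only protein gene, averaged 78.1 ± 17.0 in AAV-Ly6d and 44.7 ± 13.6 in AAV-GFP (SD, n = 3 each), with a log2 difference of 0.81 (limma adjusted p = 0.0626). Both had an unadjusted p under 0.05 in limma, as did 1394 of the 1780 tested genes.

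The ligand gene of the Eda2r receptor was also in the table, and it did not pass. Eda encodes ectodysplasin A, whose A2 splice form is the ligand of this receptor; the counts do not separate splice forms, and the gene also spans Mir676 and 3 processed pseudogenes. Eda had normalised read counts of 31.1, 29.9 and 40.3 in AAV-Ly6d, against 48.4, 58.1 and 67.5 in AAV-GFP. The groups did not overlap, and the log2 difference was -0.76 (limma adjusted p = 0.0623), or -0.43 after median ratio rescaling (limma adjusted p = 0.261). Per kilobase, Eda had 6.09, 5.86 and 7.89 in AAV-Ly6d, against 9.48, 11.4 and 13.2 in AAV-GFP, levels of the same order as those of Eda2r. Of 28 further listed genes of EDA signalling and the TNF receptor family, the other one in the table was Ngfr, a neurotrophin receptor that is also a stellate cell marker. Its log2 difference was -0.96 (limma adjusted p = 0.0661), or -0.55 without AAV-Ly6d replicate 1, and 0 of the 2 passed.

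Of 22 listed genes that act on or beside p53, 5 were tested, of which 0 rose, 1 fell and 4 did not pass, beside 28.0% called lower over the table, so the count sets nothing apart. Hipk2, a kinase that phosphorylates p53 and binds the Trp53inp1 protein, had 473, 389 and 654 in AAV-Ly6d, against 1221, 2364 and 1008 in AAV-GFP. It fell by 1.53 on the log2 scale (SE 0.34, limma adjusted p = 0.0324). Every AAV-Ly6d value was below every AAV-GFP value, and the log2 difference was -1.17 without AAV-GFP replicate 2. Hipk2 passed in the 3 fits that leave out an AAV-GFP library and in none that leave out an AAV-Ly6d library (adjusted p 0.0287 to 0.0985 across all 6). The DNA damage kinase genes Atm and Atr did not pass, at -1.03 and -0.76, and without AAV-GFP replicate 2 these were -0.47 and -0.22. Trp53bp1, a DNA repair scaffold that binds p53, did not pass (-0.73; -0.47 without AAV-GFP replicate 2). Trp53inp2, the only one of the 5 that was higher, is given with the autophagy genes.

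The autophagy genes that were tested stood on the other side of 0 from Trp53inp1, whose protein binds ATG8-family proteins. Of 32 further listed members 6 were tested, all 6 were higher in AAV-Ly6d, and 3 rose. Among all 1780 tested genes, 700 were higher and 15.9% rose, and so few genes say nothing particular about the list. The count of autophagy genes that rose was 0 in limma without the mean-variance trend (3 at an unadjusted p under 0.05), 1 in edgeR with the deposited size factors and 5 in edgeR with TMM factors. Map1lc3b, an ATG8-family gene that encodes LC3B, had 3400, 2996 and 2933 in AAV-Ly6d, against 1953, 1781 and 2235 in AAV-GFP, and rose by 0.65 (SE 0.17, limma adjusted p = 0.0385). Gabarapl1, of the same family, rose by 0.62, and Sqstm1, the cargo receptor p62, rose by 0.63. The groups did not overlap for any of the 3, as for 84.5% of all tested genes, so this does not set them apart. Trp53inp2, the paralog of Trp53inp1 and also an autophagy gene, had 7491, 4924 and 4703 in AAV-Ly6d, against 4465, 2749 and 4211 in AAV-GFP. Its values were thus higher where those of Trp53inp1 were lower, but its log2 difference of 0.58 did not pass (limma adjusted p = 0.0680). Atg14, a subunit of the autophagy lipid kinase complex (0.46), and Tfeb, a regulator of lysosomal genes (1.13), did not pass. Without AAV-GFP replicate 2 the difference of Tfeb was 0.55 and that of Trp53inp2 was 0.36, and the 3 rises passed in that fit and in no other fit that leaves out a library.

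**Figure D4:**
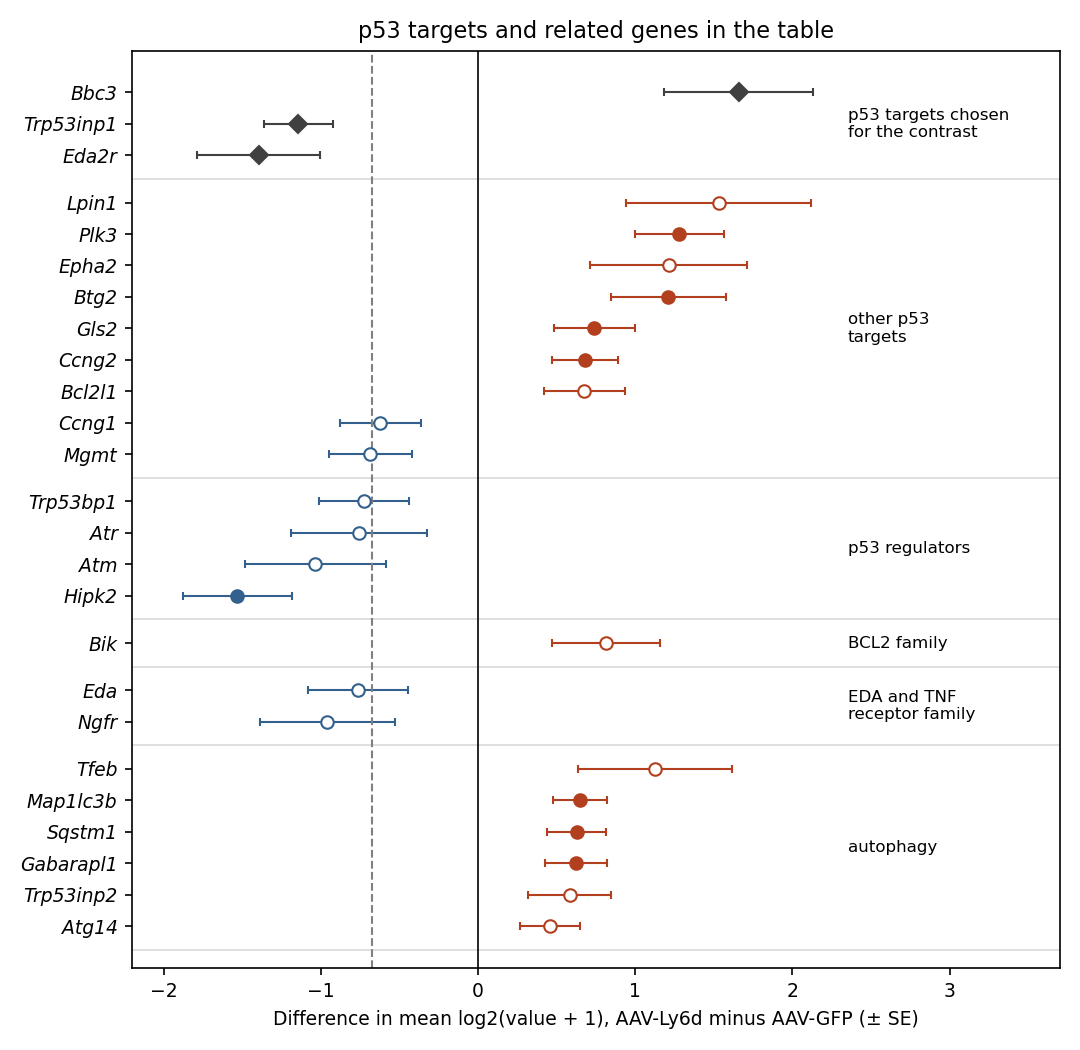
Difference in mean log2(value + 1), AAV-Ly6d minus AAV-GFP, with its standard error, for Bbc3, Eda2r and Trp53inp1 (grey diamonds, not tested) and for the listed genes in the table; red circles are higher and blue circles lower in AAV-Ly6d, filled circles passed limma's adjusted p of 0.05, open circles did not, and the dashed line is the median of all tested genes (-0.67). The 6 autophagy genes lie to the right of 0, and 4 p53 regulators and both EDA and TNF receptor family genes lie to the left. Trp53inp2, also on the p53 regulator list, is drawn with the autophagy genes.

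Similar patterns were sought by the root mean square difference over the 6 libraries of log2(value + 1) after centring each gene on its own mean, among 1401 named candidate genes whose mean was 20 or more. Nearest to Bbc3 was Cdk20, a cyclin-dependent kinase family gene, at 0.15. Cdk20 had normalised read counts of 102, 180 and 126 in AAV-Ly6d, against 61.0, 20.4 and 73.4 in AAV-GFP, the same order of libraries as Bbc3. Next came Atf5, a stress-responsive transcription factor gene (0.23), and Igkc, an immunoglobulin light chain gene (0.27). Both shared the low value of AAV-GFP replicate 2 with Bbc3.

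Nearest to Eda2r was Lgr5, a Wnt pathway receptor gene of pericentral hepatocytes, at 0.16. Lgr5 had normalised read counts of 87.5, 69.8 and 92.5 in AAV-Ly6d, against 118, 286 and 210 in AAV-GFP, again with AAV-GFP replicate 1 lowest and replicate 2 highest of their group. Pklr, the liver pyruvate kinase gene (0.20), and Myo5a, a myosin motor gene (0.21), followed. Nearest to Trp53inp1 were Ldlrad4, an inhibitor of TGF-beta signalling (0.11), the scavenger receptor gene Msr1 (0.11) and B3gnt3, a glycosyltransferase gene (0.12). Msr1 had 135, 145 and 177 in AAV-Ly6d, against 317, 364 and 245 in AAV-GFP, with the libraries in nearly the same order as for Trp53inp1.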

How the data were processed

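The authors deposited normalised read counts of liver RNA sequencing, treated here as a signal that cannot be negative, for 3 AAV-Ly6d and 3 AAV-GFP libraries, grouped by their labels. Bowtie 0.12.2 and mm10 appear in the submitters' processing notes. The counter, its strand setting and the normalisation tool are not given there, nor is the rule that chose the genes. Every value was a whole multiple of 1 step per library (within 0.001 of a read), so reads could be recovered; in AAV-Ly6d replicate 2 that step is close to 1.

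Identifiers were matched to GENCODE release M21 (GRCm38, which is mm10), which gave 1833 of 1834 a symbol. Limma 3.58.1 in R 4.3.3 (mean-variance trend, no covariates) was run on log2(value + 1) for the 1780 genes that reached 1 in 3 or more libraries, and the other 54 were not tested. "Rose" and "fell" mean a Benjamini-Hochberg adjusted p under 0.05 over these genes. Since the table already holds genes that differ between these libraries, adjusted p-values understate the error. The procedure was tested on simulated data.

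The members and lists were chosen with earlier results of these data known, and the members get no p. Named are the 3 genes, Ly6d, every pathway list member in the table, and the 3 genes most similar in pattern to each of the 3. Upstream sequences are from RefSeq (GRCm38.p6); the limit of 3 mismatches in the p53 site search was set after the Bbc3 site had been seen. Alternatives were other filters, pseudocounts and scaling, limma without the trend, a replicate block, omission of each library, adjustment over the annotation, and edgeR 4.0.16 and DESeq2 1.42.0 on recovered reads.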

Additional observations from a re-analysis of the deposited data

How the results depend on the processing

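No alternative reversed Bbc3, Eda2r or Trp53inp1, but since their groups do not overlap, leaving out a library could not do so. Leaving out each library gave log2 differences of 1.19 to 2.04, -1.74 to -1.20 and -1.33 to -0.95 in that order. Among the other 10 alternatives, the replicate block, the other filters and limma without the trend cannot change a difference of means. In the rest, the difference of Trp53inp1 alone moved by more than its replicate SD of 0.28, to -0.80 after median ratio rescaling.

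Counts of calls moved more. Tested genes past the threshold were 782 in all, 0 (without AAV-Ly6d replicate 1, 773 at an unadjusted p under 0.05) to 607 with a library left out, 465 in edgeR and 1338 in DESeq2 with the deposited size factors, and 1 adjusted over all 55450 annotated genes. The share of these calls that were higher was 36.2%, against 69.4% after rescaling and 69.1% in edgeR with TMM factors. Other p53 targets past the threshold were 4; they were 0 to 3 with a library left out, 7 after rescaling, 1 without the trend, 8 in DESeq2 and 0 adjusted over the annotation (9 at an unadjusted p under 0.05).

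With the replicate block limma called 48 genes and 0 of the other p53 targets (6 at an unadjusted p under 0.05) and 0 of the autophagy genes (4 unadjusted). The sample titles give replicate numbers and state no pairing. Deviations of same-numbered libraries from their group means correlated at -0.02, -0.05 and -0.06 across genes. So few libraries cannot settle whether they are paired. No named gene changed sign under any alternative. For genes whose groups do not overlap, leaving out a library could not change the sign. The low read counts of Eda2r and Bbc3 limit their precision.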
